A study of Mus musculus with 4 samples.

Results

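The EGR and NR4A genes encode transcription factors that T-cells switch on within the first hours of signalling through their antigen receptor. The set described here holds 10 genes: the NR4A receptors Nr4a1, Nr4a2 and Nr4a3, the zinc finger factors Egr1, Egr2 and Egr3, the immediate-early gene Ier2, the transcription factor Myc, and the activation surface genes Cd69 and Cd83. Every probe set that the platform annotation assigned to one of these symbols alone was taken, which gave 19 probe sets of the 45037 tested, for 10 of the 18193 genes that could be named. The rule used their names only.

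RNA was measured on 4 Affymetrix mouse genome arrays, 2 of IL-10+ and 2 of IL-10- CD4+CD25+ T-cells. All cells came from lymph nodes of C57BL/6 mice aged 6 to 12 weeks, taken 3 days after intraperitoneal injection of CD28SA, the superagonistic anti-CD28 antibody D665. According to the labels they were then restimulated overnight with antibodies to CD3 (2 µg/ml) and CD28 (5 µg/ml) in the presence of human IL-2 (200 U/ml), and were stained for IL-10 and sorted. The study's text on the arrays does not mention this culture and describes cells 3 days after stimulation. The labels are followed here, and whether the measured cells had been restimulated in culture is not settled. Both groups had received the CD28SA injection and, by the labels, the same restimulation. The labels give 100 ng of RNA for labelling, which differs from the amount in the study's methods, and neither says whether the 2 samples of a group were separate mice or sorts. The p-values therefore cover the spread among these samples alone, and that spread may be technical.

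EGR factors are zinc finger proteins that bind GC-rich sites, and in T-cells Egr2 and Egr3 are known to restrain activation, with Nab1 and Nab2 as corepressors. NR4A factors are orphan nuclear receptors that act without a known natural ligand. They are known to be induced by antigen receptor signalling, and in regulatory T-cells (Tregs) to help maintain Foxp3. Cd69 and Cd83 are activation markers at the cell surface, Cd83 being known from activated dendritic cells, B cells and Tregs.

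The deposited values had been normalized by variance stabilization and are read here as log2. The log base is not settled. The sources do not name the base of the deposited values, while the study's legends give its array fold changes as natural logs. The highest value was 14.42, which is above the natural log of the largest scanner signal of 16 bits (11.1) and below its log2 (16), though variance stabilization can shift this. The hybridization controls cre and bioB, at a nominal 100 and 1.5 pM in the supplier's mix, were 5.00 apart, where the nominal ratio is 6.06 on a log2 and 4.20 on a natural log scale. The study's methods also state the largest fold change among its selected genes. The difference of the immunoglobulin gene Igha (-5.45) would lie beyond it on a natural log scale and within it on a log2 scale. Folds are given on the log2 reading, and on the other reading they would be larger. Differences are IL-10+ minus IL-10-, tested with limma over all 45037 probe sets. A probe set is called higher or lower where its Benjamini-Hochberg adjusted p was under 0.05, and is otherwise said not to have passed. The array medians lay between 6.31 and 6.41, and values near them carry little signal. Il10, the gene of the sorted cytokine, stood at 12.01 ± 0.01 in IL-10+ and at 10.39 ± 0.03 in IL-10- cells (SD, n = 2 each). Foxp3 stood at 10.83 ± 0.05 and 11.55 ± 0.00058, and Il2ra, which encodes CD25, at 12.80 ± 0.07 and 13.02 ± 0.17 in IL-10+ and IL-10- cells (SD, n = 2 each). These Il2ra values are of the brighter of its 2 probe sets, whose difference of -0.22 did not pass. It passed as lower with each array centred on its median (-0.30). The other probe set of Il2ra was higher in IL-10+ cells, by 0.38, so that the direction of Il2ra is not settled.

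The 10 genes did not move together. Of the 19 probe sets, 3 were higher in IL-10+ cells, 5 were lower and 11 did not pass, where 13.6% of all probe sets were higher and 16.2% lower. Egr1 and Egr3 rose, Egr2, Nr4a3 and Cd83 fell, and Nr4a1, Ier2, Myc and Cd69 did not pass, while the probe sets of Nr4a2 disagreed. Each gene was then read by its brightest probe set, the one whose mean over the 4 arrays was highest. On this reading 2 of 10 genes were higher and 3 lower, and the median difference was -0.03. Over all genes, 8.37% were higher and 22.9% lower, with a median of -0.01. All 10 brightest probe sets were above the median level, and among the 11040 genes of that kind 11.9% were higher and 36.3% lower. The counts of the set are close to these shares. With each array centred on its median, the calls over all probe sets split into 4668 higher and 10076 lower, against 6133 higher and 7307 lower as deposited. In bulk samples, fewer cells that carry a transcript cannot be told apart from less transcript per cell.

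**Figure D1:**
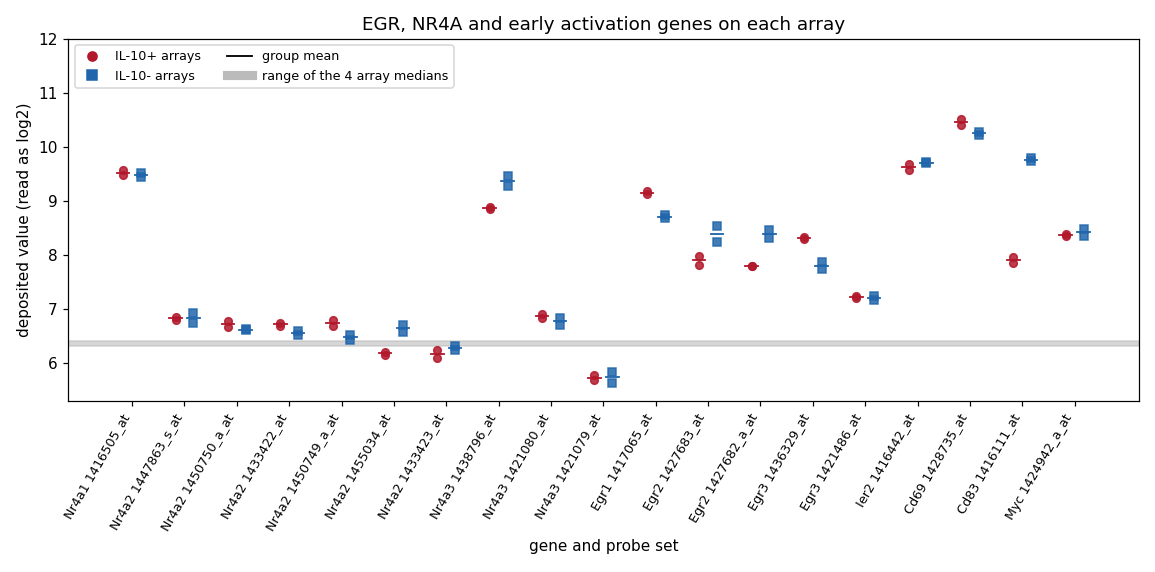
Deposited values (read as log2) of the 19 probe sets on each array, with IL-10+ arrays as circles and IL-10- arrays as squares, group means as short lines and the range of the 4 array medians as a grey band. Cd83 shows the widest gap between the groups, and the 6 probe sets of Nr4a2 lie close to the grey band.

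Cd83 encodes an immunoglobulin-like surface protein of activated lymphocytes and dendritic cells. Its probe set 1416111_at read 7.86 and 7.96 in IL-10+ cells, against 9.79 and 9.74 in IL-10- cells. The groups lay 1.79 apart, while the arrays of a group differed far less. The difference was -1.86 (standard error 0.068, 95% confidence interval -2.02 to -1.70, adjusted p = 6.45e-06), or 3.63-fold lower in IL-10+ cells (6.42-fold if the values were natural logs). Cd83 was the 1 probe set of the 19 past the threshold of the study's methods, a fold change of 2 or more and an adjusted p under 0.001, where 0.575% of all probe sets were lower and 1.72% higher.

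Markers of B cells and plasma cells moved in the same direction as Cd83. Of 11 such markers, 9 were lower in IL-10+ cells, where 22.9% of all genes were lower, and Pax5 (-0.03) and Cr2 (-0.05), both near the array medians, did not pass. Their mean level was 6.46 to 6.50 in IL-10+ and 8.00 to 8.01 in IL-10- arrays, and their summed level on the linear scale was 1071 to 1083 in IL-10+ and 9268 to 9910 in IL-10- arrays. The largest of these differences were in Igha, the constant region of immunoglobulin A (-5.45), Mzb1, a chaperone of antibody secretion (-2.75), and Jchain, the joining chain of secreted antibodies (-2.75). Of 10 dendritic cell markers 1 was higher and 2 were lower, where 8.37% of all genes were higher and 22.9% lower, with a mean level of 6.30 to 6.36 in IL-10+ and 6.29 to 6.35 in IL-10- arrays. The 2 lower ones were Batf3, a factor of cross-presenting dendritic cells (-0.33, adjusted p = 0.0417), and the chemokine gene Ccl22 (-0.30, adjusted p = 0.0292), and Xcr1 was higher at a level below the array medians (0.24, adjusted p = 0.0328). Batf3 read 6.90 and 6.61 in IL-10+ cells, against 7.10 and 7.06 in IL-10- cells. Leaving out 1 array ended the call of Batf3 (IL-10+ replicate 2), of Ccl22 (IL-10+ replicate 1, IL-10+ replicate 2 or IL-10- replicate 3) and of Xcr1 (IL-10+ replicate 1 or IL-10+ replicate 2). The part of other cells in the differences of Cd83 and of the other genes described here, higher or lower, was not tested.

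**Figure D2:**
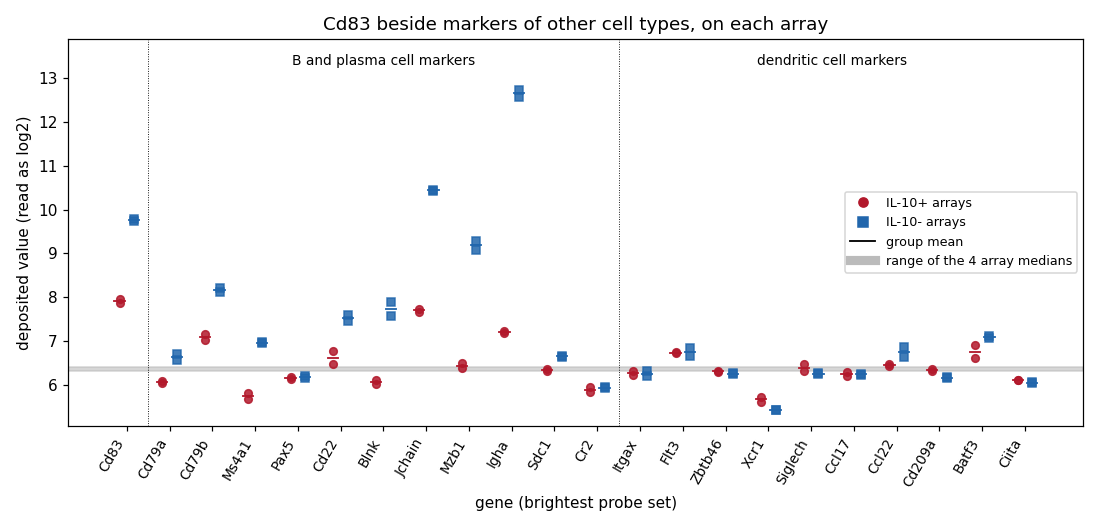
Values (read as log2) of Cd83, of 11 B and plasma cell markers and of 10 dendritic cell markers on each array, by brightest probe set, with IL-10+ arrays as circles and IL-10- arrays as squares. Cd83 lies between 7.86 and 7.96 in IL-10+ and at 9.74 and 9.79 in IL-10- cells, 9 of the 11 B and plasma cell markers are lower in IL-10+ cells, and the dendritic cell markers lie between 5.43 and 7.10 on all arrays, around the grey band of array medians.

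The 3 EGR factors did not move the same way. Egr1, the founding member of the family, read 9.12 and 9.18 in IL-10+ cells, against 8.68 and 8.74 in IL-10- cells. The groups did not overlap, and the difference was 0.44 (standard error 0.065, adjusted p = 0.00169), which is 1.36-fold higher in IL-10+ cells on the log2 reading. Egr3, which is known to act beside Egr2 in T-cell tolerance, was read by a pair of probe sets. The brighter, 1436329_at, read 8.29 and 8.33 in IL-10+ cells, against 7.86 and 7.75 in IL-10- cells. Its groups were apart by 0.42, with a difference of 0.50 (standard error 0.069, adjusted p = 0.00125). The dimmer, 1421486_at, read 7.24 and 7.21 in IL-10+ cells, against 7.23 and 7.17 in IL-10- cells. These overlapped, and the difference of 0.02 did not pass (95% confidence interval -0.13 to 0.17, adjusted p = 0.877). With the mean of both probe sets Egr3 still passed, at 0.26 (adjusted p = 0.00927).

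Egr2, a factor known to restrain effector T-cells, fell in both of its probe sets. Probe set 1427683_at read 7.82 and 7.99 in IL-10+ cells, against 8.24 and 8.53 in IL-10- cells. Probe set 1427682_a_at read 7.80 and 7.79 in IL-10+ cells, against 8.31 and 8.46 in IL-10- cells. On neither did the groups overlap, though the spread within a group was wider on the first. The differences were -0.48 (standard error 0.11, adjusted p = 0.0112) and -0.59 (standard error 0.073, adjusted p = 0.000791). Without IL-10+ replicate 1, the first did not pass (-0.40, adjusted p = 0.0615). The intervals of Egr2 (-0.73 to -0.24 and -0.76 to -0.42) and those of Egr1 (0.29 to 0.59) and of the brighter Egr3 probe set (0.34 to 0.66) lay on opposite sides of 0.

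Egr4, the remaining gene of the family, was close to the array medians and differed by 0.13 (adjusted p = 0.241). Nab2, which binds EGR factors and represses their targets, fell by 0.38 (adjusted p = 0.00405), and its relative Nab1 differed by 0.15 (adjusted p = 0.143). This was the brightest of 3 probe sets of Nab1, and the other 2 were higher, the larger by 0.63. The brightest passed upwards after quantile normalization (0.30, adjusted p = 0.00921).

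**Figure D3:**
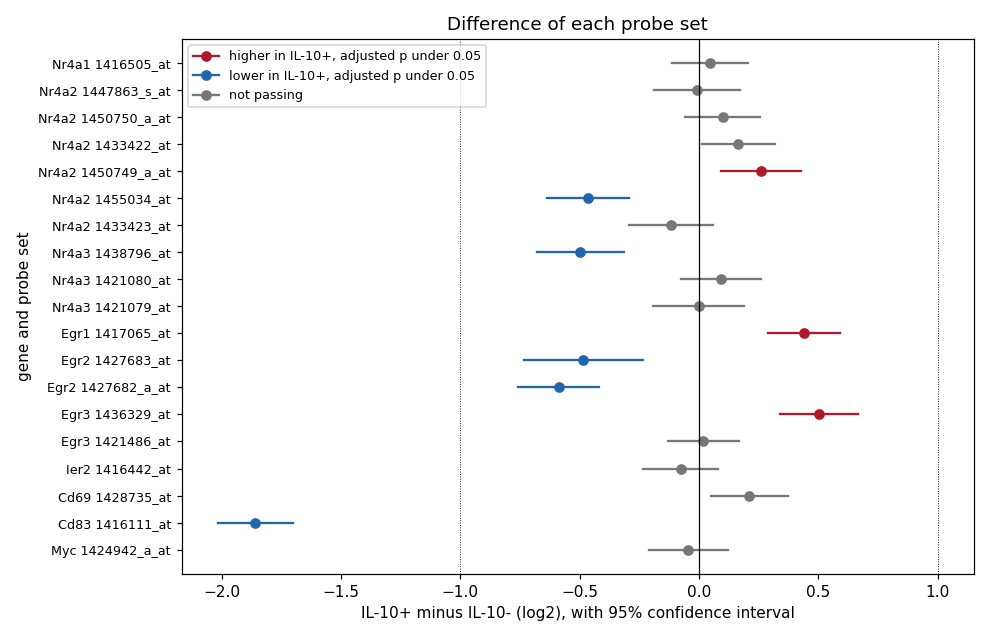
Difference of each of the 19 probe sets, IL-10+ minus IL-10- on the log2 scale, as a point with its 95% confidence interval, coloured by whether it passed an adjusted p of 0.05. Cd83 stands at -1.86 beyond the dotted line at -1, and the other 18 probe sets lie between -0.59 and 0.50.

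The promoter windows of the NR4A genes and of Egr2 are printed because the NR4A genes share a number of one short site while their differences were not alike, with 1 window of Egr2 beside them. RefSeq windows on GRCm38.p6, 300 bases each (250 before and 50 after the start), were found for 4 of the 10 genes. Egr3, Ier2, Cd69, Cd83, Myc and Egr1 had none used here. Capitals mark matches on either strand to the core TGACG of the CRE, the site of CREB factors, which also lies within a full CRE, to the EGR site GCGNGGGCG, and to the CArG box of SRF. The windows lie at chr15:101266596-101266895 (plus strand) for Nr4a1, chr2:57123954-57124253 (minus strand) for Nr4a2, chr4:48045055-48045354 (plus strand) for Nr4a3, and chr10:67537619-67537918 (plus strand) for the third of 5 windows of Egr2, each given 5′ to 3′.
Nr4a1: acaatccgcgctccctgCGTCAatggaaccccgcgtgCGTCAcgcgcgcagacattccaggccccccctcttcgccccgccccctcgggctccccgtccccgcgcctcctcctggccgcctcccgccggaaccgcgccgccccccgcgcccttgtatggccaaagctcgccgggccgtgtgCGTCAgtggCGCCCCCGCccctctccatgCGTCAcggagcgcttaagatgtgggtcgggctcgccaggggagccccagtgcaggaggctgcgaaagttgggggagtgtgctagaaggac
Nr4a2: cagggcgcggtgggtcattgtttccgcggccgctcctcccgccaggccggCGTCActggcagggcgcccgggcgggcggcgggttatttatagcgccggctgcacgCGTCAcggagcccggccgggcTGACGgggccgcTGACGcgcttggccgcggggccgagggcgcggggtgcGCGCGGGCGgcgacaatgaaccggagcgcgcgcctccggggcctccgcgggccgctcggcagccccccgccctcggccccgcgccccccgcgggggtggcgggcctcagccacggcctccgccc
Nr4a3: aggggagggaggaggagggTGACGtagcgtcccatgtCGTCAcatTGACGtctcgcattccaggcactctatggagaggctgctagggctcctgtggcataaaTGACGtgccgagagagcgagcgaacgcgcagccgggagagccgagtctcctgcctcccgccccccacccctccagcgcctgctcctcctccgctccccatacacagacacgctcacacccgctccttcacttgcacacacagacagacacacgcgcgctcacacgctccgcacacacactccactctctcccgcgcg
Egr2: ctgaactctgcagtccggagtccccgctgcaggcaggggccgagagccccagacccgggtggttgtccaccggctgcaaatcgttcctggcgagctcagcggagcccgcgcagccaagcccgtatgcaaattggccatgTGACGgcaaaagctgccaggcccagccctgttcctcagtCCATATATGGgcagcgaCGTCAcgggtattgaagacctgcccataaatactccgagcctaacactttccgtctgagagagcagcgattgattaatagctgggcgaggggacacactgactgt

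Each of the 3 NR4A windows held 4 CRE cores, a number reached by 0.231% of the 32851 windows of that length, and 20.8% held at least 1. Nr4a1 and Nr4a2 also held 1 EGR site each, a match found in 5.55% of all windows. The Egr2 window held 2 CRE cores (at least 2 in 5.01% of windows) and a CArG box (1.63%). It was chosen after its matches were seen. The other windows of Egr2 differ: the first held an E-box and the second a CArG box, both without a CRE core, and the remaining pair overlap the printed one and held the same matches. The full CRE TGACGTCA (1.79% of all windows), the NR4A monomer site AAAGGTCA (1.51%), the AP-1 site TGANTCA (7.81%) and the E-box CACGTG (7.15%) were also searched on both strands, and none of the 4 windows printed held one. These matches describe the letters of the windows only.

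Of the NR4A genes, Nr4a3 fell, Nr4a1 did not pass and Nr4a2 was dim. Nr4a1, which encodes Nur77 and is widely used as a reporter of antigen receptor signalling, read 9.57 and 9.48 in IL-10+ cells, against 9.52 and 9.44 in IL-10- cells. The groups overlapped on a bright probe set, and the difference was 0.05 (95% confidence interval -0.11 to 0.21, adjusted p = 0.675). Nr4a3, which encodes Nor1, was brightest on 1438796_at, which read 8.88 and 8.86 in IL-10+ cells, against 9.28 and 9.46 in IL-10- cells. The groups were apart by 0.40, and the difference was -0.50 (standard error 0.078, adjusted p = 0.00229). The dimmer Nr4a3 probe sets overlapped between the groups and differed by 0.09 (adjusted p = 0.408) and -0.00 (adjusted p = 0.997). The last of these lay below the array medians, at 5.69 and 5.78 in IL-10+ cells and 5.83 and 5.64 in IL-10- cells. With the mean over the 3 probe sets, Nr4a3 did not pass (-0.14, adjusted p = 0.0815).

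Nr4a2, which encodes Nurr1, was read by 6 probe sets with group means between 6.16 and 6.84, so that no bright measurement of it was at hand. Probe set 1450749_a_at read 6.80 and 6.69 in IL-10+ cells, against 6.53 and 6.44 in IL-10- cells, and rose by 0.26 (adjusted p = 0.0292). Probe set 1455034_at read 6.15 and 6.21 in IL-10+ cells, against 6.57 and 6.71 in IL-10- cells, and fell by 0.47 (adjusted p = 0.00234). Nr4a2 was the 1 gene of the set with probe sets passing in both directions. The other probe sets differed by -0.12 to 0.16 and did not pass, and the mean over all 6 differed by -0.01 (adjusted p = 0.900). The rise of 1450749_a_at did not pass when IL-10+ replicate 1 (adjusted p = 0.225), IL-10+ replicate 2 (0.0611) or IL-10- replicate 4 (0.0608) was left out, nor after quantile normalization (0.0814) or median centring (0.0850).

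Transcripts added to the RNA as controls differed along their length. On 4 of them the signal at the 5′ end was higher in IL-10+ arrays by a median of 1.22 (0.68 to 2.16), that of the middle by 0.82, and that of the 3′ end by 0.04. Control probe sets of the mouse's own transcripts also had higher differences at the 5′ end than at the 3′ end. For actin these were 1.12 and 0.40, and for Gapdh 0.88 and 0.02. Where the probe sets of the genes described here lie along the transcript was not known, those of Nr4a2, Nr4a3 and Egr3 included. The part of this gradient in the disagreement of probe sets was not tested. Nor was its part in the differences of other genes, such as Egr1, Cd69 and Nr4a1.

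Ier2, an immediate-early nuclear factor, read 9.58 and 9.68 in IL-10+ cells, against 9.70 and 9.71 in IL-10- cells. The groups were apart by 0.02, and the difference of -0.08 did not pass (95% confidence interval -0.23 to 0.08, adjusted p = 0.459). Cd69, which encodes a C-type lectin that retains lymphocytes in tissue, was the brightest gene of the set. It read 10.41 and 10.52 in IL-10+ cells, against 10.22 and 10.28 in IL-10- cells. The groups did not overlap, and the difference of 0.21 missed the threshold (95% confidence interval 0.05 to 0.37, adjusted p = 0.0553). Cd69 passed after quantile normalization (0.32, adjusted p = 0.00648), among the probe sets above the median alone (adjusted p = 0.0393), with IL-10- replicate 4 left out (0.24, adjusted p = 0.0377) and in the fit of genes averaged over probe sets (adjusted p = 0.0304).

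Myc, the transcription factor that drives growth and ribosome production in activated lymphocytes, read 8.40 and 8.35 in IL-10+ cells, against 8.35 and 8.49 in IL-10- cells. The groups overlapped, and the difference was -0.04 (95% confidence interval -0.21 to 0.12, adjusted p = 0.711). The known targets of MYC gave other values. Of 25 measured target genes, 17 were lower in IL-10+ cells, 3 were higher and 5 did not pass, with a median of -0.38, against a median of -0.10 over the 11040 genes brighter than the median, of which 11.9% were higher and 36.3% lower. The same shares stand behind the counts of the lists that follow. The largest differences were in the ribosome assembly gene Nop56 (-1.32), the spermidine synthase gene Srm (-1.31), the pyrimidine synthesis gene Cad (-1.30) and the DNA repair gene Apex1 (-1.30). Cad had 2 probe sets that were lower and 1 that was higher, by 0.33. Eif4e was higher on its brightest probe set, 1 of 4, and the lowest of the others, at -0.27, did not pass. Odc1 was higher on all 3 of its probe sets, and Ccnd2 on 5 of 7, with none lower. The 3 higher targets were Eif4e (0.67), Odc1 (0.25) and Ccnd2 (0.21), and Odc1 and Ccnd2 did not pass when IL-10+ replicate 1, IL-10+ replicate 2 or IL-10- replicate 3 was left out, nor after median centring.

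Of 17 partners and regulators of MYC, 7 were lower, 1 was higher and 9 did not pass (median -0.19). The helicases Ruvbl2 (-0.68) and Ruvbl1 (-0.65) and the MAX partner Mxd4 (-0.59), an antagonist of MYC, fell, and the antagonist Mxi1 rose by 0.43. Max, the obligate partner of MYC, differed by -0.14 (adjusted p = 0.265), and passed without IL-10- replicate 3 (-0.23, adjusted p = 0.0418). Without IL-10- replicate 3, the number of higher genes was 3, and with the probe sets of each gene averaged 4 were higher and 4 lower.

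The other immediate-early genes were also split. Of 30, 6 were higher, 11 were lower and 13 did not pass, with a median of -0.08. Btg2, an antiproliferative gene, read 9.57 and 9.81 in IL-10+ cells, against 7.99 and 8.04 in IL-10- cells, and rose by 1.68 (standard error 0.088, adjusted p = 2.4e-05). Its second probe set differed by -0.06 and did not pass. Jun, a subunit of AP-1, rose by 0.79 on its brightest probe set and fell by 0.36 on the other. Srf, which binds the CArG box in immediate-early promoters, fell by 1.06, and the factor Klf4 fell by 0.71. The lower genes numbered 7 without IL-10+ replicate 1 and 6 without IL-10+ replicate 2.

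Of 20 measured genes upstream of these factors or bound to them, 2 were higher, 11 were lower and 7 did not pass (median -0.34). Mef2d, of the MEF2 family that is known to control Nr4a1 in T-cells, fell by 0.94, and Cabin1, a repressor of MEF2 factors, fell by 0.70 on its brightest probe set while 2 others rose. The kinase gene Map2k2 fell by 0.76. Nfatc1, the calcium-dependent factor NFAT2, rose by 0.89 on its brightest probe set and in 3 of 5. With the probe sets of each gene averaged, 6 were higher and 6 lower, and after quantile normalization 5 were higher.

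Of 20 genes reported elsewhere as targets of EGR or NR4A factors, 6 were higher, 9 were lower and 5 did not pass (median -0.15). Socs3, an inhibitor of cytokine signalling, fell by 1.12, Dgka, a diacylglycerol kinase that dampens receptor signals, by 0.83, and Id3, an inhibitor of E proteins, by 0.82. Foxp3 was also among the lower genes (-0.72). Ctla4, an inhibitory receptor of Tregs, read 13.49 and 13.48 in IL-10+ cells, against 12.51 and 12.71 in IL-10- cells, and rose by 0.87 (standard error 0.080, adjusted p = 0.000198). Havcr2 (0.79), Socs1 (0.65), Pdcd1 (0.42), Lag3 (0.38) and Fasl (0.22) were the other genes that rose. Fasl did not pass after quantile normalization (adjusted p = 0.132) or median centring (0.155), nor when IL-10+ replicate 1 (0.197) or IL-10+ replicate 2 (0.164) was left out.

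Of 14 measured activation surface genes, 2 were higher, 3 were lower and 9 did not pass (median -0.03). Cd28, the receptor that CD28SA binds, read 13.13 and 13.09 in IL-10+ cells, against 12.50 and 12.18 in IL-10- cells, and rose by 0.77 (standard error 0.11, adjusted p = 0.00124). Cd200, a ligand that restrains myeloid cells, fell by 0.71, the amino acid transporter gene Slc7a5 by 0.30 and Cd44, an adhesion receptor, by 0.28. Of the 4 probe sets of Cd44 2 were lower and 1 was higher, by 1.07. Cd44 did not pass without IL-10+ replicate 1 (adjusted p = 0.0919), without IL-10+ replicate 2 (0.169), without IL-10- replicate 4 (0.0829) or after quantile normalization (0.171), and Slc7a5 did not pass without IL-10+ replicate 1 (0.151). After quantile normalization 5 were higher and 2 lower, and with the probe sets of each gene averaged 4 were higher and 2 lower. The higher genes numbered 1 without IL-10+ replicate 1, without IL-10+ replicate 2 or without IL-10- replicate 4, and the lower genes numbered 1 without IL-10+ replicate 1.

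**Figure D4:**
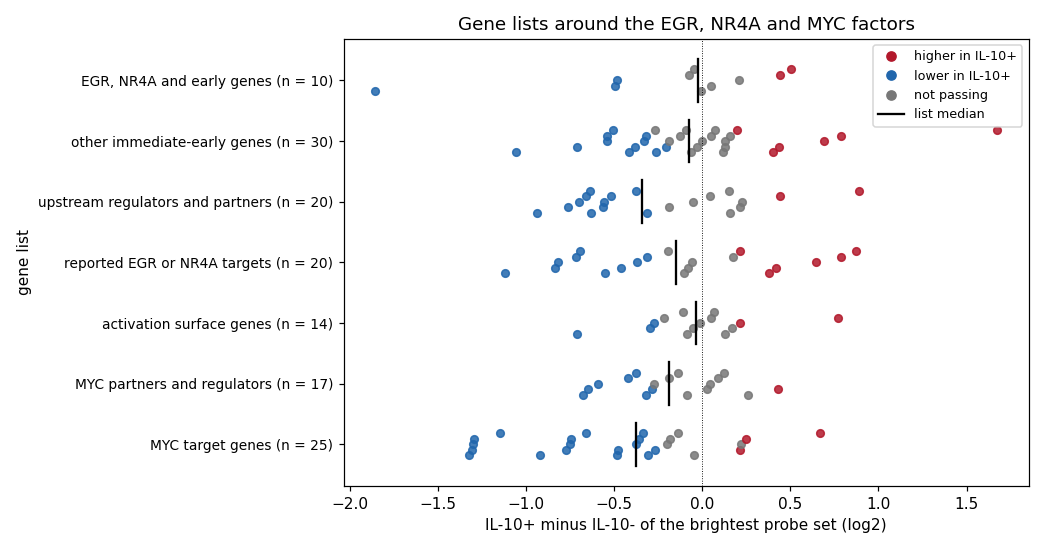
Differences of single genes, IL-10+ minus IL-10- on the log2 scale, by brightest probe set, for the 10 EGR, NR4A and early genes and for 6 related lists, coloured by call, with a black bar at the median of each list. The list medians lie between -0.38 for MYC targets and -0.03, and each list holds genes that passed in both directions.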

How the data were processed

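CD4+CD25+ T-cells sorted as IL-10+ (2 samples) or IL-10- (2 samples) were profiled on Affymetrix mouse genome arrays. The authors normalized the signal intensities by variance stabilization and deposited 1 value for each probe set on each array. These deposited values are taken as log2, with natural logs as an alternative. How probes were combined into probe sets is not given in the sources used here, nor is the base of these values, though the study's legends give array fold changes as natural logs. Variance stabilization compresses differences of dim probe sets.

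Of 45101 probe sets, 64 controls were set aside, and 45037 were compared with limma (version 3.58.1, under R 4.3.3; functions lmFit and eBayes, two-sided, Benjamini-Hochberg adjustment, 5.44 prior and 2 residual degrees of freedom), without covariates. An exact permutation test of 2 against 2 arrays cannot go below p = 0.333 and was not used. Symbols came from the platform annotation, which names 1 gene for 34945 of these probe sets, several for 932 and none for 9160. The number of arrays, 4, limits the precision. The limma step was tested on simulated data, with the spread drawn from limma's own fitted prior after other ways of drawing it had missed the limits set. A version with 1 draw had also missed, and the limit was moved to the mean over several draws. Because the spread came from that prior, the simulation cannot show how limma behaves where the real spread departs from it. The share of false calls was then a little above the nominal rate on average over several draws, and clearly above it in some of them. Plots were made in matplotlib 3.10.9 under Python 3.11.15.

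All 19 probe sets of the 10 genes are named. From each related list the 4 genes with the largest difference among those that passed by brightest probe set are named, with Egr4, Nab1, Nab2 and Max, and with Foxp3, Il10 and Il2ra to check the labels. Higher MYC targets, higher EGR or NR4A targets and marker genes were named after their values were seen. The genes and lists were chosen with earlier results of these data known. Some genes of the lists were not analysed here. Promoter windows are those of RefSeq for GRCm38.p6 (32851 windows of 27025 genes).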

Additional observations from a re-analysis of the deposited data

How the results depend on the processing

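The alternatives were quantile normalization, median centring, probe sets above the median only, a prior with a trend or fitted robustly, natural logs, leaving out each array in turn, averaging all probe sets of a gene, dropping probe sets with suffix x or s, and an adjusted p of 0.01. No paired analysis was possible because the groups share no replicate numbers. Natural logs rescale every value alike, so that setting could not change a direction or a call. The lowest value of Cd83 below (-2.68) is this rescaling. The filter by the median and the changed priors left every difference as it was, and could change a call but not a direction. These settings and natural logs are included in the counts of kept and changed values. The counts of kept and changed values leave out the averaging of probe sets, the suffixes and the adjusted p of 0.01. For the 10 genes, 168 values kept their direction and side of the threshold, 6 lost a call, 3 gained one and 11 changed sign. Of the 8 passing probe sets 6 passed the same way at 0.05 in every fit run for single probe sets (scaling, filter, prior, log base, left-out arrays), with Cd83 between -2.68 and -1.81, and Egr2 1427683_at and Nr4a2 1450749_a_at did not. All sign changes were in probe sets that passed in neither fit: after quantile normalization Egr3 1421486_at (-0.022), Ier2 (0.029) and Myc (0.0076), and after median centring Egr3 1421486_at (-0.057) and Nr4a1 (-0.028).

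Leaving out each array in turn gave -0.011 to 0.049 for Egr3 1421486_at, -0.11 to 0.022 for Myc, -0.095 to 0.078 for Nr4a2 1447863_s_at, -0.094 to 0.092 for Nr4a3 1421079_at, -0.10 to 0.0095 for Cr2 and -0.059 to 0.0028 for Pax5. It gave 1 to 2 higher and 1 to 4 lower activation surface genes, 1 to 3 higher MYC partners, 1 to 4 higher MYC targets and 6 to 12 lower immediate-early genes. The array left alone in its group was then assumed to vary like the other group.

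Of the list counts, quantile normalization gave 5 higher activation surface genes and 5 higher upstream genes, and median centring 1 higher activation surface gene and 1 higher MYC target. The mean over the probe sets gave 4 higher activation surface genes, 4 higher and 4 lower MYC partners, and 6 higher and 6 lower upstream genes. An adjusted p of 0.01 gave 1 higher and 1 lower activation surface gene, 1 higher MYC target and 7 lower immediate-early genes. In the fits for single probe sets, run after seeing the data for the 48 other passing genes named, 38 passed the same way each time, and Batf3, Ccl22, Ccnd2, Cd44, Cd8b1, Csf1r, Fasl, Odc1, Slc7a5 and Xcr1 did not. The causes of these changes were not tested. Ikzf2, named below, was not among the 48 genes and was not run in these fits. Dim signal limits Nr4a2.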

Other observations

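Of 7 markers of CD4 T-cells and Tregs, 3 were higher in IL-10+ cells and 2 were lower, with a mean level of 11.50 to 11.51 in IL-10+ and 11.42 to 11.47 in IL-10- arrays. The 2 lower ones were Foxp3 (-0.72) and, by its brightest probe set, Ikzf2 (-0.55). Of the 3 probe sets of Ikzf2 2 were lower and 1 was higher, by 0.55. Of 9 monocyte and macrophage markers, 3 were higher, namely Cd68, a lysosomal protein that other cells also carry (0.89), Cd14 (0.49) and Csf1r (0.30), and Mpeg1 was lower (-0.75). The mean level of these 9 was 6.79 in both IL-10+ arrays and 6.73 in both IL-10- arrays. Their summed level on the linear scale was 1774 to 1800 in IL-10+ and 1287 to 1297 in IL-10- arrays. Of 4 NK cell markers, Eomes (-0.62) and Klrk1 (-0.52) were lower, and of 2 CD8 markers Cd8b1 (-0.24) was lower, and no marker of these 2 lists was higher. Cd8b1 and Csf1r did not pass when IL-10+ replicate 1 or IL-10+ replicate 2 was left out, nor Cd8b1 without IL-10- replicate 3. Of all genes, 8.37% were higher and 22.9% lower.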
